A study of Mus musculus with 13 samples.

Results

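Hpd, Prodh and Slc16a10 are 3 of the 100 genes of a spatial transcript panel measured in mouse liver, and all 3 had a row in each of the 13 sections. They were chosen by gene symbol, as the panel's genes of tyrosine breakdown, proline breakdown and amino acid transport. The sections came from male C57BL/6 mice that were 2 months old at surgery, when 2/3 of the liver was removed, and the newly grown lobes were taken afterwards. There were 2 sections each at 0 h, 24 h, 48 h and 72 h, 3 at 14 d, 1 at 3 months and 1 at 6 months, and every group shared the strain, the sex and the operation, with no unoperated animals of the later ages among the samples analysed here. Single transcripts were located by repeated imaging of the section (Molecular Cartography) and counted in outlined cells.

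The 13 sections held 131221 cells and 55744933 counts, with 1678015 to 9619206 counts per section and a mean of 270 to 619 per cell. The hepatocyte genes Cyp2e1, Pck1 and Cps1 were counted in all sections. The labels do not say whether sections of a time came from separate animals, so p-values measure the spread between sections. The 24 h sections carry the same slide position and were summed to 1 library for tests. All 14 d sections, and no others, lay on slide 3, so time and slide cannot be told apart there. Slide 1 held section 1 of 0 h, both sections of 24 h and of 48 h, section 1 of 72 h and the 3 month section. Slide 2 held section 2 of 0 h, section 2 of 72 h and the 6 month section.

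Hpd encodes 4-hydroxyphenylpyruvate dioxygenase, the enzyme that follows transamination in the breakdown of tyrosine, a pathway that is most active in hepatocytes. Prodh encodes the mitochondrial proline dehydrogenase, which starts the breakdown of proline. Slc16a10 encodes a membrane carrier of the aromatic amino acids tyrosine, phenylalanine and tryptophan. Hepatocytes differ along the lobule from the portal vein, where blood enters, to the central vein, where it leaves: urea synthesis and glucose output dominate at the portal side, and glutamine synthesis and many cytochrome P450 enzymes at the central side.

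The bases before the outermost annotated start of each gene are shown because the 3 genes differed in level by several orders of magnitude and Hpd and Prodh both fell at 48 h. All come from RefSeq (GRCm38.p6), where all 3 symbols matched, and all 3 genes lie on the minus strand, Hpd at chr5:123171807-123182723, Prodh at chr16:18071726-18089283 and Slc16a10 at chr10:40033532-40142270. They are written 5′ to 3′ in lower case, with matches to the motifs searched in capitals.

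Hpd, chr5:123182724-123182973: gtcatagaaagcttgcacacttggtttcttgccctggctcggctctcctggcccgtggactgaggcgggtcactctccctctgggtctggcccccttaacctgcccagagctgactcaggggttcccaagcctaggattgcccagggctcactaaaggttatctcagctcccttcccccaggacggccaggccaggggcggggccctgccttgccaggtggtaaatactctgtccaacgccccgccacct

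Prodh, chr16:18089284-18089440: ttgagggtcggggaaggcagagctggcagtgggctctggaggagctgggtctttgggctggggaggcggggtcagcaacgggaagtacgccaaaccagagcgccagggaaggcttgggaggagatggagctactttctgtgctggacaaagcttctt

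Slc16a10, chr10:40142271-40142504: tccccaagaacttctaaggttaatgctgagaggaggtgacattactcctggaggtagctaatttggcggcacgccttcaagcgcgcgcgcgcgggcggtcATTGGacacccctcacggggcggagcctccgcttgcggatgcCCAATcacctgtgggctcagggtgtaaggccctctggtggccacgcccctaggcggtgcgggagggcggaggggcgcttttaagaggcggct

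In all, 8 motifs were searched on both strands of the full 300 base windows, which reach from 250 bases before to 50 bases after the start that RefSeq's promoter table uses. That start is the outermost one for Hpd and lies inside the gene for Prodh and Slc16a10. CCAAT was the only motif found, in the Slc16a10 window, 1 time on each strand, and 37.4% of all 32851 windows of that length hold it. The windows of Hpd and Prodh held none of TATAAA (13.6% of all windows), CTTTGA, the core of the TCF/LEF site (16.0%), AGGTCA, the core of a nuclear receptor site (16.3%), TGTTTAC, a forkhead site (3.65%), or TTGCNNAA, a C/EBP site (10.8%). The palindromic sites of HNF1 and of the glucocorticoid receptor were absent from the 3 windows and stood in 0.009% of all windows each. The Hpd window held 7 CpG dinucleotides, that of Prodh 17 and that of Slc16a10 26. No overlap between motifs was found in these windows. A missing match says only that these letters are not in the window.

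Hpd was one of the most abundant transcripts of the panel at every time. It took 8.35% of all counts, ranked 3 of 100 genes over all sections, and lay between rank 2 and rank 6 in each. Its share of the counts in cells was 9.76% and 5.62% in the sections of 0 h, 8.06% and 8.11% at 24 h, 6.14% and 6.86% at 48 h, 7.24% and 9.03% at 72 h, 9.23%, 9.10% and 9.36% at 14 d, 8.12% at 3 months and 7.70% at 6 months. The sections of 0 h lay at both ends of this range, and those of every other time lay between them. Levels below are therefore given after scaling by TMM, which sets libraries to a common level through the bulk of the genes, as CPM, counts scaled to a common library total.

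On that scale Hpd stood at 121437 and 90332 CPM at 0 h, 83815 at 24 h, 57784 and 55784 at 48 h, 77072 and 91084 at 72 h, 69421, 81932 and 78316 at 14 d, 73208 at 3 months and 88289 at 6 months. Both 48 h sections lay below all others. Hpd fell at 48 h by 0.90 ± 0.24 (log2 fold change against 0 h ± SE; edgeR quasi-likelihood test, Benjamini-Hochberg adjusted p = 0.0139). At the other times the log2 difference from 0 h was -0.34 ± 0.30 at 24 h, -0.33 ± 0.24 at 72 h, -0.47 ± 0.22 at 14 d, -0.53 ± 0.30 at 3 months and -0.26 ± 0.30 at 6 months, and none passed the adjusted threshold of 0.05. Ordered from high to low by mean the times were 0 h, 6 months, 72 h, 24 h, 14 d, 3 months and 48 h, and no pair of times other than 0 h and 48 h passed the test.

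The call at 48 h depended on the scaling. Divided by total counts the difference was -0.24 (adjusted p = 0.440, edgeR), and divided by cell number it was -0.20 (adjusted p = 0.602). These scalings moved the median of all 99 genes tested at 48 h from 0.21 with TMM to 0.92 and 0.97 on the log2 scale, so that Hpd lay below the median gene by a like distance in each. The TMM factors of the 0 h libraries, 0.80 and 0.62, were the lowest of the 12. With cell number scaling Hpd stood 1.00 above 0 h at 14 d (adjusted p = 0.00580, edgeR), against -0.47 with TMM. By cell number the median gene at 14 d stood higher, at 1.57, with 75 of the 99 genes passing as higher and 2 as lower. The call also ended with the slide as a block (-0.88, adjusted p = 0.179), within slide 1 alone (-1.05, adjusted p = 0.174) and without section 2 of 48 h (-0.86, adjusted p = 0.0609), all by edgeR. Without section 2 of 0 h Hpd also fell at 14 d, by 0.70 (adjusted p = 0.0289, edgeR).

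Prodh was scarcer and moved more. It took 1.10% of all counts and ranked 17 of 100, between 11 and 35 in single sections. It stood at 14683 and 7658 CPM at 0 h, 6372 at 24 h, 4185 and 6608 at 48 h, 6640 and 7331 at 72 h, 12202, 13221 and 12323 at 14 d, 14412 at 3 months and 8502 at 6 months. The libraries of 24 h, 48 h and 72 h lay below every other library. Section 1 of 0 h was the highest of all, and section 2 of 0 h lay just above the 72 h sections.

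Prodh fell at 48 h by 1.05 ± 0.30 on the log2 scale (edgeR, adjusted p = 0.0168). With Hpd, 2 of the 3 genes passed at 48 h, when 23.2% of the 99 genes tested passed in either direction. Its differences from 0 h were -0.81 ± 0.38 at 24 h, -0.68 ± 0.30 at 72 h, 0.17 ± 0.28 at 14 d, 0.37 ± 0.36 at 3 months and -0.39 ± 0.37 at 6 months, none of which passed. At 14 d Prodh passed with cell number scaling (1.61, adjusted p = 0.00500, edgeR). That was near the median gene, which stood at 1.57, and 75 of the 99 genes passed as higher with this scaling. As for Hpd, the 48 h call ended in edgeR with total-count scaling (-0.40, adjusted p = 0.439). In edgeR it also ended with cell number scaling (-0.34, adjusted p = 0.575) and the slide as a block (-1.15, adjusted p = 0.0595). Within slide 1 alone Prodh stood lower at 48 h by 1.42 on the log2 scale. That fit held only section 1 of 0 h, the higher of the 0 h sections for Prodh (14683 against 7658 CPM).

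Which 0 h section served as the start decided further calls. Without section 2 of 0 h, Prodh fell at 24 h by 1.11 (adjusted p = 0.0185; 0.94 and 0.0497 without section 1 of 24 h) and at 72 h by 1.08 (adjusted p = 0.0115). Without section 1 of 0 h it rose at 14 d by 0.71 (adjusted p = 0.0244) and at 3 months by 1.02 (adjusted p = 0.0184), all by edgeR.

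Later times were also compared with 48 h in the same fit. The 0 h sections are not part of these differences but entered the scaling and the estimate of the spread. At 14 d Prodh stood above 48 h by 1.22 ± 0.29 on the log2 scale (edgeR, adjusted p = 0.00237), and 40.4% of all genes tested passed in that comparison. The difference was 1.27 with total-count scaling (adjusted p = 0.0241) and 1.96 with cell number scaling (adjusted p = 0.00279). Each 14 d library exceeded each library of 24 h (38.4% of genes tested passed between these times), 48 h and 72 h (27.3%). The 3 month library also lay above both of 48 h (1.42 ± 0.35, adjusted p = 0.0104, edgeR), when 10.1% of genes passed, but with total-count scaling (1.35, adjusted p = 0.112) and cell number scaling (1.30, adjusted p = 0.167) this missed the threshold. In the order of means, 3 months, 14 d, 0 h, 6 months, 72 h, 24 h and 48 h, no pair of neighbours differed beyond the spread by this test.

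Slc16a10 was near the floor of the panel, with 431 counts in all sections and rank 91 of 100. The sections held 11 and 6 counts at 0 h, 9 and 2 at 24 h, 20 and 19 at 48 h, 9 and 37 at 72 h, 52, 94 and 73 at 14 d, 16 at 3 months and 83 at 6 months. As unscaled CPM this was 28.7 at 6 months, with an exact 95% Poisson interval of 22.9 to 35.6, against 2.88 (1.44 to 5.16) and 1.5 (0.55 to 3.26) at 0 h. These intervals cover counting error only. The 6 month section lay above all others, of which the highest was section 3 of 14 d at 9.94 (7.79 to 12.5).

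With TMM scaling Slc16a10 stood at 3.59 and 2.41 CPM at 0 h, 2.89 at 24 h, 5.84 and 4.42 at 48 h, 3.9 and 7.38 at 72 h, 5.51, 8.80 and 8.32 at 14 d, 5.19 at 3 months and 32.9 at 6 months. It rose at 6 months by 3.43 ± 0.66 on the log2 scale (edgeR, adjusted p = 0.00179). That time has 1 section, which the test takes to vary as the others do, and 23.2% of the genes tested passed there. Its rise was the largest but 1 of the genes tested. Of the 11 genes that rose at 6 months, 6 had under 10000 counts in all sections, a property of 30 of the 99 genes tested, whose median log2 difference was 1.08 against -0.15 for all genes; the part of this in the rise of Slc16a10 was not tested. The rise held with total-count scaling (3.70, adjusted p = 0.00730) and missed the threshold with the slide as a block (3.19, adjusted p = 0.0516), both by edgeR.

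From 24 h to 3 months Slc16a10 did not pass the test against 0 h with TMM scaling. Its log2 differences were 0.77 ± 0.76 at 3 months, 1.31 ± 0.56 at 14 d, 0.94 ± 0.63 at 72 h, 0.74 ± 0.63 at 48 h and -0.07 ± 0.80 at 24 h. At 14 d the difference passed with total-count scaling (2.03, adjusted p = 0.00816) and with cell number scaling (2.75, adjusted p = 0.000563), and also without section 2 of 24 h (1.41, adjusted p = 0.0345) or section 1 of 72 h (1.30, adjusted p = 0.0450), all by edgeR. It also passed there with DESeq2 (1.31, adjusted p = 0.0380), and by edgeR with the 24 h sections as 2 libraries (1.41, adjusted p = 0.0358) or with only the libraries of 0 h and 14 d (1.23, adjusted p = 0.0292). At 72 h it passed with cell number scaling (1.82, adjusted p = 0.0199, edgeR). With that scaling the median gene stood at 1.05 at 72 h, with 38 genes passing as higher and 0 as lower. At 14 d it stood at 1.57, with 75 and 2. With total-count scaling the median gene at 14 d stood at 0.83, with 37 genes passing as higher and 5 as lower. In the order of means, 6 months, 14 d, 72 h, 3 months, 48 h, 0 h and 24 h, only the step between 6 months and 14 d passed (2.12 ± 0.54, adjusted p = 0.00636, edgeR), in a comparison in which 34.3% of genes passed. It shrank to 0.61 with cell number scaling (adjusted p = 0.306).

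**Figure D1:**
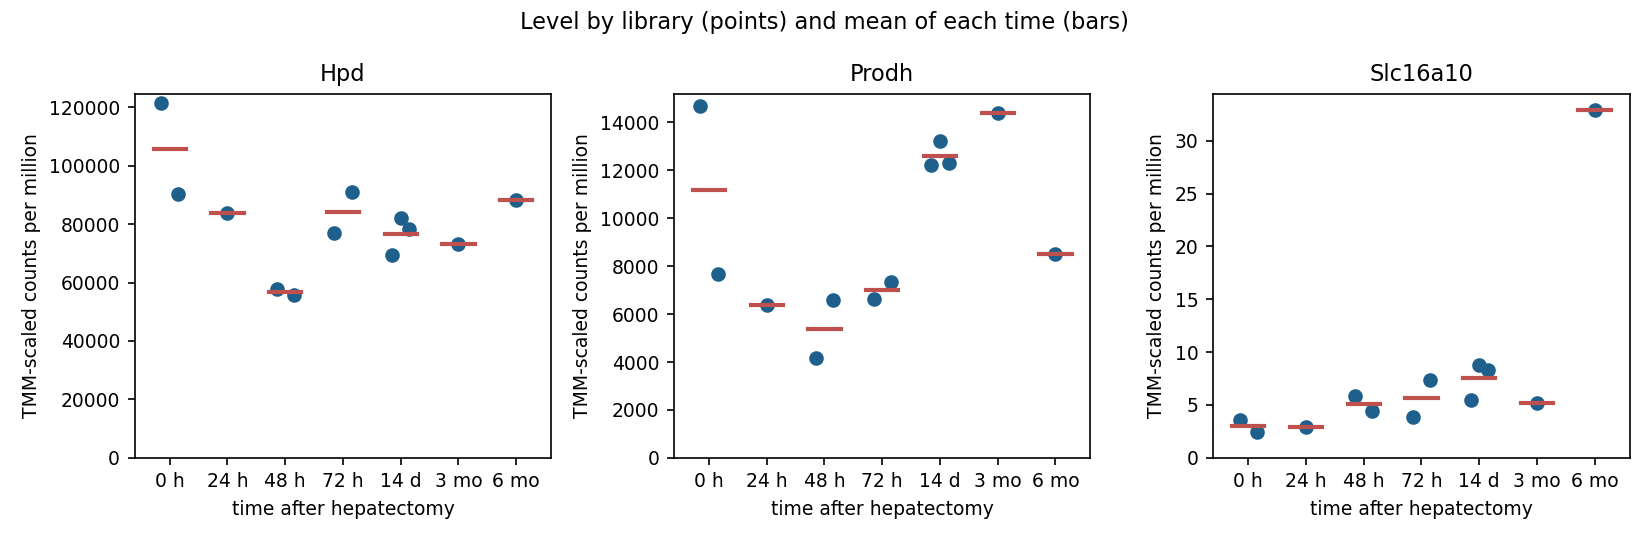
TMM-scaled CPM of Hpd, Prodh and Slc16a10 (vertical axes, linear, each from 0) at the 7 times after partial hepatectomy. Points are libraries, with both 24 h sections as 1 library, and bars are means: Hpd is lowest at 48 h, Prodh is low from 24 h to 72 h, and Slc16a10 stands at 32.9 in the 6 month section against 8.80 at most elsewhere.

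Per cell, Hpd was present almost everywhere and Prodh was not. A cell held a mean of 33.3 and 19.0 Hpd transcripts in the sections of 0 h, 28.3 and 29.7 at 24 h, 20.5 and 25.03 at 48 h, 37.1 and 40.3 at 72 h, 57.1, 55.9 and 43.4 at 14 d, 27.8 at 3 months and 20.8 at 6 months. At least 1 was found in 96.3% to 99.1% of cells. For Prodh the mean was 4.03 and 1.61 at 0 h, 2.18 and 2.22 at 24 h, 1.48 and 2.97 at 48 h, 3.20 and 3.24 at 72 h, 10.04, 9.03 and 6.84 at 14 d, 5.47 at 3 months and 2.00 at 6 months. Over all genes the 14 d cells held medians of 470 to 632 transcripts, against 231 to 491 at the other times.

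When each cell was thinned to 100 transcripts, which left out 137 to 1827 shallower cells per section, Prodh was found in 64.4% and 34.8% of cells at 0 h, 41.4% and 40.0% at 24 h, 31.4% and 45.2% at 48 h, 40.5% and 45.9% at 72 h, 74.9%, 71.4% and 72.0% at 14 d, 74.6% at 3 months and 49.5% at 6 months. Before thinning the share was 60.9% to 96.5%. The 14 d and 3 month sections thus stayed above the others at equal depth, with section 1 of 0 h nearest. Hpd was found in 98.6% to 99.9% of thinned cells. Across cells of at least 50 transcripts, the shares of Hpd and Prodh had Spearman correlations from -0.11 at 3 months to 0.28 in section 2 of 48 h, a description of cells that share a section and its depth.

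Across the lobule, Prodh was a central gene in each of the 12 sections with transcript positions. Each section was divided into square tiles, and tiles were ordered by a score of 9 central genes (Axin2, Cyp1a2, Cyp27a1, Cyp2e1, Glul, Lect2, Lgr5, Oat and Tbx3) minus 6 portal genes (Gls2, Pck1, Arg1, Ass1, Cps1 and Hsd17b13) and cut into 5 classes, from class 1, most portal, to class 5, most central. The share of Prodh among all transcripts rose from class 1 to class 5 from 0.85% to 1.46% and from 0.31% to 0.86% at 0 h, and from 0.27% to 1.18% and from 0.26% to 1.16% at 24 h. At 48 h it went from 0.23% to 0.94% and from 0.31% to 1.54%, and at 72 h from 0.39% to 0.93% and from 0.46% to 1.02%. At 14 d it went from 1.31% to 1.95% and from 1.22% to 1.59%, at 3 months from 1.42% to 1.63% and at 6 months from 0.62% to 0.94%.

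The sections of 24 h, 48 h and 72 h lay apart from those of 14 d and 3 months in both outer classes, with the wider gap in class 1. The class 1 share was at most 0.46% in the former and at least 1.22% in the latter, and the class 5 share at most 1.54% and at least 1.59%. The steepest central-to-portal ratios were 4.33 and 4.40 at 24 h and 4.05 and 4.94 at 48 h, the flattest 1.15 at 3 months, 1.49 and 1.30 at 14 d and 1.5 at 6 months. At 0 h the sections stood at 1.71 and 2.82.

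**Figure D2:**
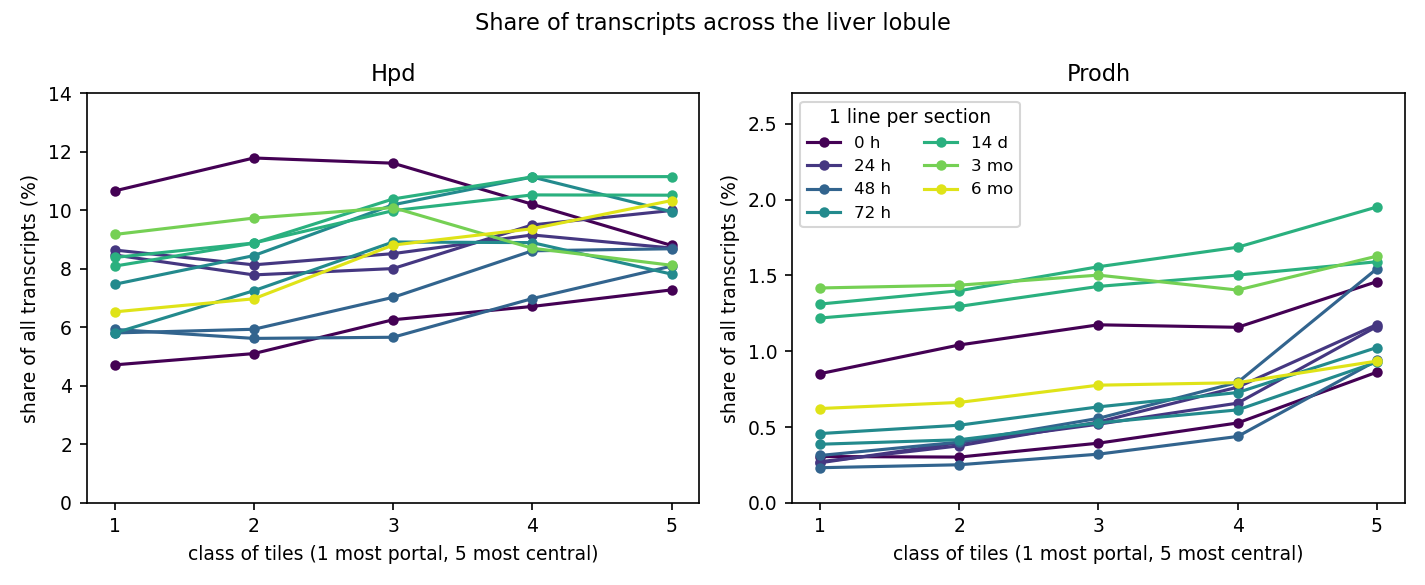
Share of all transcripts (percent, vertical axes from 0) of Hpd and Prodh in 5 classes of tiles from the most portal (1) to the most central (5), 1 line per section, coloured by time. Prodh stands higher in class 5 than in class 1 in each section, though at 3 months its class 4 lies just below class 1. Its portal share is low at 24 h and 48 h and high, 1.22% to 1.42%, at 14 d and 3 months. As a ratio of the highest to the lowest class, Hpd varies less than Prodh except at 3 months and 6 months.

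The log2 central-to-portal ratio of Prodh was 1.03 ± 0.28 higher at 48 h than at 0 h (limma, adjusted p = 0.0302), among 62 genes of which 48.4% passed. It was 1.68 ± 0.28 lower at 14 d than at 48 h (limma, adjusted p = 0.0104), a comparison added after the values were seen, in which 12.9% passed, all toward the portal side. The differences from 0 h were 0.99 ± 0.34 at 24 h, 0.08 ± 0.28 at 72 h, -0.66 ± 0.28 at 14 d, -0.94 ± 0.34 at 3 months and -0.55 ± 0.34 at 6 months, none passing. Over the 62 genes 8.06% passed in the ratio at 24 h, 4.84% at 72 h, 33.9% at 14 d, 0% at 3 months and 1.61% at 6 months. By rank correlation with the score (rho 0.18 to 0.86 over the sections), Prodh was less central at 3 months than at 0 h by 0.67 ± 0.17 in Fisher z (limma, adjusted p = 0.0410), when 4.84% of genes passed (0% at 6 months, 19.4% at 14 d, 6.45% at 72 h, 38.7% at 48 h and 17.7% at 24 h), and this call ended without section 2 of 0 h (-0.53, adjusted p = 0.173) without either 72 h section (adjusted p = 0.117 each) and with the slide as a block (-0.58, adjusted p = 0.203). The change of the ratio at 48 h ended in 7 of the 12 fits that left out 1 section, with 0.88 (adjusted p = 0.135) when section 2 and 1.17 (0.0700) when section 1 of 48 h was omitted, 0.67 (0.0743) when section 1 of 0 h was, and an unmoved 1.03 when either section of 72 h (0.0528 each) or of 14 d (0.0647 each) was. It also missed the threshold with the slide as a block (1.18, adjusted p = 0.0553, limma) and as transcripts per tile in place of shares (0.43, adjusted p = 0.477, limma). The fall from 48 h to 14 d missed the threshold when section 2 of 48 h was omitted (-1.54, adjusted p = 0.0521), and likewise for section 1 (-1.78, adjusted p = 0.0604) or section 2 (-1.59, adjusted p = 0.0995) of 14 d, all by limma.

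Cyp2e1, a cytochrome P450 enzyme of central hepatocytes, filled much of the central tiles, by an amount that differed between times. In class 5 it made up 62.2% and 59.4% of all transcripts at 0 h, 27.4% and 36.7% at 24 h, 33.9% and 23.8% at 48 h, 56.6% and 52.4% at 72 h, 43.6% and 44.2% at 14 d, 60.8% at 3 months and 62.2% at 6 months. With Cyp2e1 left out of score and totals, Prodh ratios were 4.49 and 6.86 at 0 h, 5.98 and 6.82 at 24 h, 6.08 and 6.46 at 48 h, 5.61 and 4.58 at 72 h, 2.61 and 2.27 at 14 d, 2.94 at 3 months and 3.998 at 6 months. The rise at 48 h was then 0.18 (adjusted p = 0.641). The 14 d ratio was 1.19 log2 units below 0 h (adjusted p = 0.0191) and 1.37 below 48 h (adjusted p = 0.0327), both by limma. By the ratio, the sections of 14 d and 3 months thus had the flattest Prodh gradients with and without Cyp2e1, while the 48 h sections overlapped those of 0 h without it. The rank correlation did not keep this order: without Cyp2e1 rho was 0.78 and 0.86 at 48 h, 0.83 and 0.80 at 14 d and 0.86 at 3 months. The Fisher z of Prodh at 3 months then lay 0.17 below 0 h, in place of 0.67 (adjusted p = 0.910), and at 14 d it stood at -0.0203 against 48 h, in place of -0.48 (adjusted p = 0.953), both by limma.

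Hpd had a shallow gradient when all transcripts were counted, and a steeper one without Cyp2e1. Its share in class 1 and class 5 was 10.7% and 8.80% in section 1 of 0 h, 4.72% and 7.28% in section 2 of 0 h, 8.48% and 9.999% and, in the other section, 8.65% and 8.71% at 24 h. At 48 h it was 5.93% and 8.10% in section 1 and 5.81% and 8.69% in section 2, and at 72 h 5.81% and 7.82% in section 1 and 7.47% and 9.96% in section 2. At 14 d it was 8.10% and 11.2% in section 1 and 8.39% and 10.5% in section 2, at 3 months 9.18% and 8.12%, and at 6 months 6.53% and 10.3%. Section 1 of 0 h and the 3 month section leaned to the portal side, with rho of -0.43 and -0.33 against the score, and the other 10 to the central side (0.09 to 0.74).

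Without Cyp2e1 in score and totals, Hpd leaned to the central side in all 12 sections, with rho between 0.67 and 0.90 and a class 5 share 1.59 to 4.18 times that of class 1. The lowest ratios were those of 24 h, 1.63 and 1.59, and the highest was that of 6 months. No change of Hpd against 0 h passed with either measure, the Fisher z differences lying between -0.54 ± 0.54 at 3 months and 0.67 ± 0.54 at 6 months (limma), and the 0 h sections opposed each other. At 48 h the difference of 0.63 ± 0.44 became 1.02 with the slide as a block (adjusted p = 0.000778, limma). Without section 2 of 0 h, the change in Fisher z passed at 5 times (1.29 at 48 h, adjusted p = 0.000247, limma, the largest but 1), and without section 1 of 0 h it turned to -0.02 there (adjusted p = 0.922) and passed toward the portal side at 3 months (-1.20, adjusted p = 0.00188, limma).

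**Figure D3:**
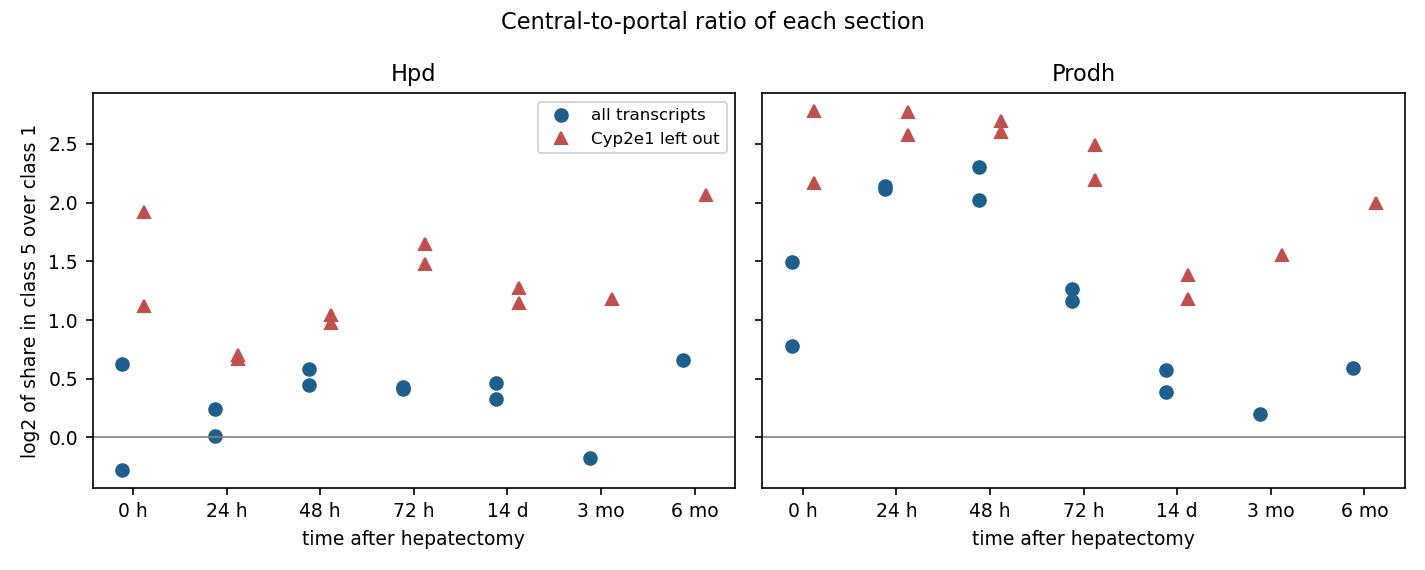
Log2 ratio of the share in the most central class over the share in the most portal class, per section and time, for Hpd and Prodh. Circles use all transcripts and triangles leave Cyp2e1 out of score and totals: Prodh circles peak at 24 h and 48 h, and in both versions its 14 d sections lie below those of 0 h, 24 h, 48 h and 72 h, while all Hpd triangles lie above 0.

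By its share of all transcripts, with Cyp2e1 counted, Hpd was also one of the most even genes over the tissue. Its coefficient of variation across tiles was 0.147 to 0.270, and in each section it ranked among the 5 smallest of the 62 genes. The coefficient was not computed without Cyp2e1, where the class 5 share of Hpd was 1.59 to 4.18 times that of class 1. Prodh ranged from 0.158 at 3 months to 0.693 in section 2 of 48 h, and from rank 1 in section 2 of 14 d to rank 45 in section 1 of 48 h. The genes whose tile shares followed Hpd most closely, by mean Spearman correlation over 12 sections, were Rgn (0.47), the calcium-binding protein regucalcin, Pon1 (0.40), a paraoxonase, and Lect2 (0.40). Those of Prodh were Rgn (0.63), Cyp2e1 (0.63) and Oat (0.61), the ornithine aminotransferase, while Hpd and Prodh correlated with each other at 0.30. Across the 12 libraries, log2(CPM + 1) of Hpd was most like that of Cyp2e1 (Pearson r = 0.81), Cyp8b1 (0.71) and Fzd8 (0.53), and Prodh most like Ass1 (0.74), Cyp8b1 (0.74) and Fzd8 (0.72). For Slc16a10 these were Wnt8b (0.79), Fzd6 (0.77) and Sox9 (0.73). All are descriptions over tiles or libraries that share depth and scaling.

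Slc16a10 lay toward the central vein despite its few transcripts. Of 383 placed in tiles, 194 (50.7%, exact 95% binomial interval 45.5% to 55.8%) fell in class 5, which held 21.6% of all transcripts. Classes 1 and 2 together held 59 (15.4%, 11.9% to 19.4%) against 39.5% of all transcripts. Both intervals pool the sections and cover counting error only, while the class 5 share of single sections ran from 34.0% to 77.3%. The class 5 count was 6 of 12 and 4 of 6 at 0 h, 5 of 10 and 2 of 3 at 24 h, 11 of 21 and 17 of 22 at 48 h, 4 of 9 and 26 of 41 at 72 h, 23 of 58 and 33 of 97 at 14 d, 8 of 18 at 3 months and 55 of 86 at 6 months. In each section the share in class 5 exceeded that of all transcripts there, and in 6 of the 12 the interval lay wholly above it. The lowest shares, 39.7% and 34.0%, were those of 14 d, and the 6 month section stood at 64.0% (52.9% to 74.0%).

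**Figure D4:**
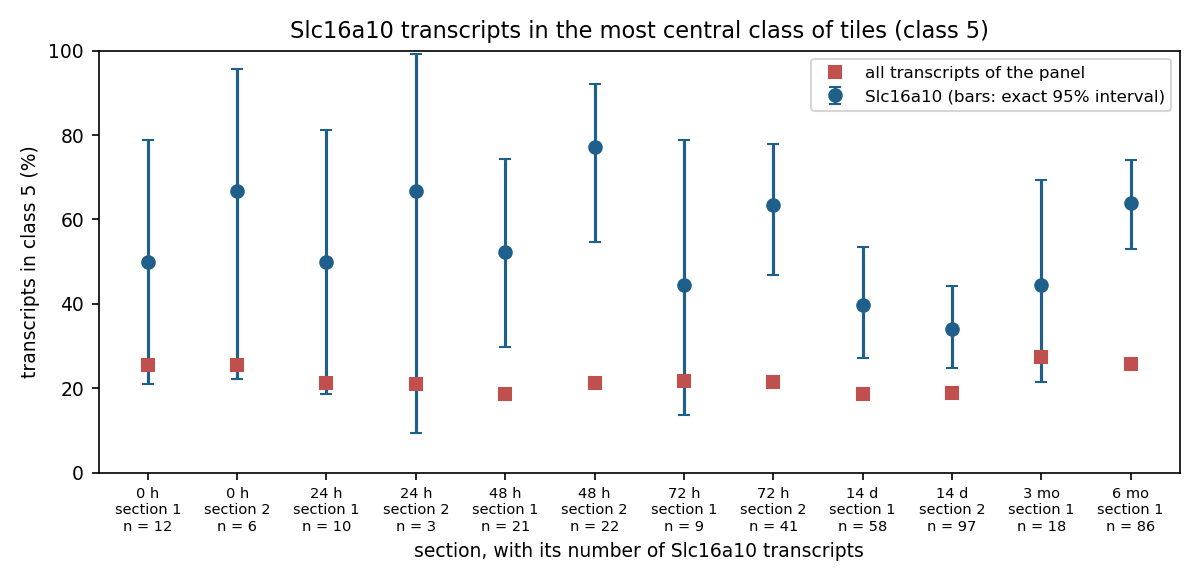
Percent of Slc16a10 transcripts in the most central class of tiles (circles, with exact 95% binomial intervals) and percent of all panel transcripts there (squares), per section, with the number of Slc16a10 transcripts under each. Each circle lies above its square, from 34.0% in section 2 of 14 d to 77.3% in section 2 of 48 h.

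The cells around these transcripts were also central in content by the summed central and portal genes. A cell held at most 2 Slc16a10 transcripts, and 421 of the 131221 cells held any, of which 10 held 2. In all 13 sections the 9 central genes took a larger share of the transcripts in these cells than in the others (1.31 to 3.09 times), and the 6 portal genes a smaller one (0.05 to 0.86 times). Cyp2e1 held the most counts of the 9 central genes in each section, and its part in their sum was not tested. Glul alone was more frequent in these cells in 9 sections and less so in 4 (0.27 to 11.5 times). Prodh was 1.32 to 4.03 times as frequent in cells with Slc16a10, in all 13 sections, while Hpd was more frequent in 6 sections and less so in 7. Their median total was 1.13 to 2.30 times that of the other cells; its part in these shares was not tested. Pecam1, a marker of endothelial cells, was less frequent in them in 12 of 13 sections.

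In cells with markers of other cell types Hpd and Prodh differed, while Slc16a10 had too few transcripts to compare, 0 to 22 per marker. Per 10000 transcripts with the marker left out, Prodh in cells with at least 3 Pecam1 transcripts was at a median of 0.76 times its level in cells without Pecam1, and below it in 11 of 13 sections. It was also lower in cells with Adgre1, a macrophage marker (median 0.72, 12 of 13 sections), with Lrat, a stellate cell marker (0.80, 10 of 13), with Ptprc, a leukocyte marker (0.72, 12 of 13), and with Sox9, a bile duct marker (0.69, 13 of 13). Hpd was higher beside Pecam1 (median 1.10) and Lrat (1.09) in all 13 sections, near even beside Adgre1 (1.02) and Ptprc (1.00), and lower beside Sox9 (0.77) in all 13. Cps1, a hepatocyte enzyme, stood at medians of 0.84 to 0.93 in these 5 classes. Pck1, another hepatocyte gene, stood at 0.69 beside Adgre1, 0.70 beside Lrat, 0.72 beside Pecam1, 0.76 beside Ptprc and 1.27 beside Sox9. Such cells thus hold many hepatocyte transcripts, and no level of the 3 genes in another cell type can be read from them.

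The 3 genes also differed in how much of their signal lay inside cell outlines. Of all listed transcripts, 64.9% of Hpd, 71.9% of Prodh and 93.2% of Slc16a10 lay in cells, against 69.4% of all transcripts and a median gene of 72.7%. Hpd ranked 11 from the lowest of 100 genes and Slc16a10 99, that is, the highest but 1. In single sections Hpd ranged from 54.1% to 73.0% and Prodh from 61.3% to 76.3%. For Slc16a10 the share was 66.7%, 2 of 3 transcripts, in section 2 of 24 h and at least 86.4% in each other section.

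The panel held 10 genes of a list of 76 amino acid genes, 7 besides Hpd, Prodh and Slc16a10. Against 0 h, the urea cycle entry enzyme Cps1 fell at 48 h by 0.82 ± 0.24, at 72 h by 0.74 ± 0.24 and at 14 d by 1.08 ± 0.22, and arginase Arg1 fell at 14 d by 1.06 ± 0.22 and at 6 months by 0.90 ± 0.32. Oat rose at 24 h by 2.49 ± 0.48, when Csad, of taurine synthesis, fell by 2.62 ± 0.77, and Glul, the glutamine synthetase, fell at 14 d by 1.57 ± 0.32 (log2 with edgeR, each past the adjusted threshold of 0.05). Gls2 and Ass1 passed at no time. Of the 10, 1 rose and 1 fell at 24 h, when 22.2% of all genes passed, 3 fell at 48 h (23.2%), 1 fell at 72 h (15.2%), 3 fell at 14 d (28.3%), none passed at 3 months (0%), and 1 rose and 1 fell at 6 months (23.2%). The median log2 difference of the 10 was -0.40 at 48 h and -0.39 at 72 h, against 0.21 and 0.12 over all genes tested, and 0.18 at 14 d against 0.07. The 10 include Hpd, Prodh and Slc16a10. For the other 7 the median was -0.36 at 48 h, -0.44 at 72 h and 0.18 at 14 d. Of these 7, 1 fell at 48 h and 1 at 72 h (14.3% each), and 3 fell at 14 d (42.9%). The other listed genes, which did not pass at 48 h, stood between -0.56 ± 0.35 for Glul and 0.86 ± 0.41 for Oat.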

How the data were processed

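Frozen liver sections were imaged by the service provider, per the labels' protocols. The authors deposited whole-number counts per gene and outlined cell for 13 sections, and lists of transcript positions in unscaled coordinate units, per the file headers, for 12 of them; for section 3 of 14 d the list was not used here. The sources used here do not give how cells were outlined. Section groups came from the labels.

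Counts were summed over cells per section and tested with edgeR 4.0.16 (TMM, robust quasi-likelihood fit over 12 libraries, 5 residual degrees of freedom, genes with at least 10 counts in 2 libraries, 99 of 100 tested, Benjamini-Hochberg, threshold 0.05). Tiles of 400 units with at least 50 transcripts were ordered by the central minus portal score, always without the gene tested. The 62 genes that reached 500 transcripts in all 12 sections were tested with limma 3.58.1 on Fisher-transformed Spearman correlations and on log2 ratios of class 5 over class 1, with 4 residual degrees of freedom; Slc16a10 had too few. Both fits were tested on simulated data. DESeq2 1.42.0 and R 4.3.3 were used for alternatives, which covered scaling, filters, blocks, tile size, Cyp2e1 and each section left out. For counts, comparisons other than those against 0 h were repeated only with total-count and cell number scaling. Cell names gave cell centres, checked against the lists (correlation of Hpd counts 0.919 to 0.957).

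Named genes were the 3 members, the 3 genes most like each across libraries and tiles, and the panel's genes of the amino acid list. The members and lists were chosen with earlier results of these data known. The depth per section was 1678015 to 9619206 counts in cells. At 1 section per time, the test borrows its spread from the other times.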

Additional observations from a re-analysis of the deposited data

Results flagged for a closer look

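Several changes against 0 h differed between 2 times when the difference itself was tested with edgeR (log2, Benjamini-Hochberg adjusted p). Prodh stood higher at 14 d than at 24 h by 0.98 (adjusted p = 0.0409), than at 48 h by 1.22 (0.00237) and than at 72 h by 0.85 (0.0310), and higher at 3 months than at 48 h by 1.42 (0.0104). Slc16a10 stood higher at 6 months than at 24 h by 3.50 (adjusted p = 0.00596), than at 48 h by 2.68 (0.00290), than at 72 h by 2.49 (0.0101), than at 14 d by 2.12 (0.00636) and than at 3 months by 2.66 (0.0353). The call of Prodh between 14 d and 24 h ended with total-count scaling (1.31, adjusted p = 0.0589), and that between 3 months and 48 h with total-count (1.35, 0.112) and cell number scaling (1.30, 0.167). The call of Slc16a10 between 6 months and 3 months ended with total-count (2.31, adjusted p = 0.0585) and cell number scaling (1.97, 0.107), and that between 6 months and 14 d with cell number scaling (0.61, 0.306), all by edgeR. In the 5 comparisons with 6 months 21.2%, 33.3%, 12.1%, 34.3% and 14.1% of the 99 genes tested passed. The calls in this paragraph were repeated only with total-count and cell number scaling, not with single sections left out. The 6 month group is 1 section, so that time cannot be told apart from its section. The 14 d sections lay on a slide of their own, so that time cannot be told apart from its slide. No group held 4 or more sections, so no search for single sections far from the others was made.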

How the results depend on the processing

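Alternatives numbered 1041 over 55 results, of which 16 passed in the main fit. A result that passed neither in the main fit nor in the alternative also counts as kept. Of the 485 that kept all sections, 390 kept direction and side of the threshold, 31 lost a call, 16 gained one and 48 turned direction. Of the 556 that left out 1 section, these numbers were 494, 18, 22 and 22. Unless a value shows it, the cause was not tested. Transcript number limits Slc16a10, with 2 to 94 counts per section.

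Differences are against 0 h unless another time is named. With total-count scaling the log2 fold change of Hpd was 0.0018 at 6 months, 0.0795 at 3 months, 0.264 at 14 d, 0.0821 at 72 h, -0.24 at 48 h and 0.072 at 24 h, that of Prodh -0.40 at 48 h, 1.31 at 14 d against 24 h and 1.35 at 3 months against 48 h, and that of Slc16a10 0.35 at 24 h, 2.03 at 14 d and 2.31 at 6 months against 3 months. With cell number scaling it was for Hpd 0.0874 at 3 months, 0.995 at 14 d, 0.56 at 72 h, -0.20 at 48 h and 0.14 at 24 h, for Prodh -0.34 at 48 h, 0.19 at 72 h, 1.61 at 14 d and 1.30 at 3 months against 48 h, and for Slc16a10 0.41 at 24 h, 1.82 at 72 h, 2.75 at 14 d, 0.61 at 6 months against 14 d and 1.97 at 6 months against 3 months. Counts of called genes moved with the scaling, at 48 h from 11 higher and 12 lower to 40 and 2 with total counts and 32 and 2 with cell number, and at 14 d from 15 and 13 to 37 and 5 and to 75 and 2.

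The section numbers did not pair the sections (correlations of same-numbered deviations from -0.51 to 0.21). With the replicate block Hpd stood at -0.93 at 48 h (adjusted p = 0.0805, edgeR) and the Fisher z of Prodh at 14 d against 48 h at -0.48 (adjusted p = 0.0536, limma), and no other call changed. With the slide as a block, Slc16a10 was at 0.14 at 24 h and 3.19 at 6 months, Hpd at -0.88 and Prodh at -1.15 at 48 h, the Fisher z of Hpd at 1.02 at 48 h and of Prodh at -0.58 at 3 months, and the log2 ratio of Hpd at 0.17 at 24 h and of Prodh at 1.18 at 48 h. Slide 1 alone gave Prodh -1.22 at 24 h and Hpd -1.05 at 48 h. Only the 2 times compared gave Hpd -0.96 at 48 h and Slc16a10 1.23 at 14 d. DESeq2 gave Slc16a10 1.31 at 14 d, 24 h sections as 2 libraries 1.41 at 14 d, and no filter on low counts 0.13 at 24 h. The 14 d sections as 1 library, added after the data were seen, gave Hpd -1.07 at 48 h.

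Without Cyp2e1 in score and totals the Fisher z of Hpd was -0.55 at 24 h, -0.35 at 48 h, -0.31 at 14 d, 0.0538 at 3 months and 0.0335 at 14 d against 48 h, and of Prodh -0.0211 at 24 h, -0.30 at 48 h, -0.17 at 3 months and -0.0203 at 14 d against 48 h, while the log2 ratio of Hpd was -0.51 at 48 h, -0.31 at 14 d and 0.20 at 14 d against 48 h, and of Prodh 0.18 at 48 h, -0.13 at 72 h and -1.19 at 14 d. Without Cyp2e1 in totals only, also added later, z was for Hpd -0.58 at 24 h, -0.37 at 48 h, -0.31 at 14 d, 0.0332 at 3 months and 0.0622 at 14 d against 48 h, and for Prodh -0.0386 at 24 h, -0.32 at 48 h, -0.20 at 3 months and 0.0082 at 14 d against 48 h, with ratios for Hpd of -0.52 at 48 h, -0.31 at 14 d and 0.21 at 14 d against 48 h, and for Prodh of 0.17 at 48 h, -0.14 at 72 h and -1.18 at 14 d. Transcripts per tile, added later, gave z of Hpd of -0.32 at 24 h, -0.14 at 48 h, -0.0804 at 72 h and -0.26 at 14 d, of Prodh of -0.011 at 48 h, -0.55 at 14 d and -0.25 at 3 months, ratios of Hpd of -0.25 at 48 h, -0.19 at 72 h and -0.49 at 14 d, and of Prodh of 0.43 at 48 h, -0.36 at 72 h and -1.37 at 14 d. For Prodh, tiles of 200 units gave z of -0.35 at 14 d against 48 h and -0.44 at 3 months, tiles of at least 500 transcripts 0.54 at 24 h, 0.0065 at 72 h and -0.67 at 3 months, the fit that was not robust -0.67 at 3 months, and 24 h sections as 2 values a z of 0.44 and a ratio of 0.99 at 24 h.

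Leaving out 1 section at a time, the log2 fold change of Hpd ranged from -0.48 to 0.0619 at 24 h, -1.28 to -0.76 at 48 h, -0.70 to -0.25 at 14 d and -0.45 to 0.11 at 6 months, that of Prodh from -1.11 to -0.10 at 24 h, -1.08 to -0.23 at 72 h, -0.25 to 0.71 at 14 d, 0.068 to 1.02 at 3 months and -0.78 to 0.30 at 6 months, and that of Slc16a10 from -1.40 to 0.43 at 24 h and 1.02 to 1.61 at 14 d. The Fisher z of Hpd ranged from -0.57 to 0.75 at 24 h, -0.0219 to 1.29 at 48 h, -0.32 to 1.00 at 72 h, -0.35 to 0.97 at 14 d, -1.20 to 0.12 at 3 months, 0.0168 to 1.33 at 6 months and -0.44 to -0.20 at 14 d against 48 h, and of Prodh from 0.30 to 0.58 at 24 h, 0.10 to 0.38 at 48 h, -0.14 to 0.14 at 72 h, -0.81 to -0.53 at 3 months and -0.62 to -0.35 at 14 d against 48 h. The log2 ratio of Hpd ranged from -0.50 to 0.40 at 24 h, -0.11 to 0.79 at 48 h, -0.20 to 0.70 at 72 h, -0.23 to 0.67 at 14 d and -0.80 to 0.10 at 3 months, and of Prodh from 0.63 to 1.35 at 24 h, 0.67 to 1.39 at 48 h, -0.28 to 0.44 at 72 h, -1.02 to -0.30 at 14 d and -1.83 to -1.54 at 14 d against 48 h.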
